A study of Mus musculus with 14 samples.

Results

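The comparison set granulocyte-monocyte progenitors (GMP) labelled as knockout for the transcription factor IRF8 against mature neutrophils, to measure how far the knockout progenitor stands from the mature cell, gene class by gene class. Its members are the 4 arrays of both groups among the 14 arrays of the series, 2 labelled IRF8KO GMP and 2 labelled WT Neu, chosen by their labels. Both groups are primary cells of bone marrow from C57BL/6 mice, and the labels give no age, no treatment and no number of animals. IRF8KO GMP were sorted with magnetic beads and then by flow cytometry as cells without lineage markers, IL-7R, Sca-1 or CD115 and with CD117 and CD16/32, and the genotype label is IRF8KO. Neutrophils were sorted by flow cytometry alone as CD11b(+) Ly6G(hi) cells of wildtype mice. Wild-type GMP (WT GMP, 2 arrays, the gate of the knockout) serve here to place the knockout cells. Genotype, cell type and sorting method all differ between IRF8KO GMP and neutrophils.

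GMP are bone marrow progenitors that give rise to neutrophils and monocytes. Neutrophils form their granules in order as they mature: the primary (azurophil) granules with myeloperoxidase and serine proteases arise at the promyelocyte stage, the secondary (specific) granules with lactoferrin and the tertiary granules with gelatinase arise later, when division ends. IRF8, of the interferon regulatory factor family, directs monocyte and dendritic cell development, and mice without it accumulate granulocytes. The C/EBP factors and GFI1 act in granulocyte development, C/EBP-epsilon at the formation of specific granules.

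Levels are the log2 of each array's processed signal minus that array's 75th percentile, so 0 is the signal below which 75% of an array's spots lie. A gene is represented by its brightest probe, which allows a gene to be compared between groups but not with another gene. Of 20284 genes named on the arrays, 12714 passed the filter, which asked for a signal well above background on both IRF8KO GMP arrays or on both neutrophil arrays, and were tested. Calls were made where the adjusted p of a limma fit over 12 arrays of 6 groups fell under 0.05. The 75th percentile of the signal was 544 and 509 on the IRF8KO GMP arrays and 162 and 148 on the neutrophil arrays. The lowest signal well above background lay between −4.60 and −3.87 in IRF8KO GMP and between −3.05 and −2.94 in neutrophils. A level below the limit of its array is a background reading, and a level above that limit can be one as well. No spot was saturated. Where a gene was above background on no array of the dimmer group, its difference is given as an at-least fold against these limits. The IRF8KO GMP and WT GMP arrays share slide 1 and the neutrophil arrays lie on slide 4, so slide and group cannot be told apart in the comparison with neutrophils. The arrays of a group are labelled as separate experiments, and no label says if different animals gave them. The p-values cover no more than the spread between these arrays, and that spread may be technical.

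Irf8, the targeted gene, was read by 1 probe. Its level was 6.03 and 5.98 on the arrays labelled IRF8KO GMP, 4.61 and 4.7 on the WT GMP arrays and −0.095 and −0.044 on the neutrophil arrays. The arrays labelled knockout were thus the brightest for Irf8, above WT GMP by 1.35 (adjusted p = 1e-05), which goes against a plain reading of the label. Where the probe lies relative to the deleted part is not known here, so it checks nothing about the deletion, and every direction below is that of the arrays labelled IRF8KO GMP. Among genes of the gates, Kit (CD117) was at 5.42 and 5.41 in IRF8KO GMP and 0.91 and 0.99 in neutrophils, and Itgam (CD11b) was at 4.33 and 4.41 in IRF8KO GMP and 7.55 and 7.5 in neutrophils. Ly6a, which encodes Sca-1, was lower in the Sca-1-negative progenitor (2.3 and 2.24) than in neutrophils (6.42 and 6.41). Csf1r, which encodes CD115, was at 5.23 and 5.21 in the CD115-negative progenitor and 6.78 and 6.81 in neutrophils. Of the CD16/32 genes, Fcgr3 was at 4.0 and 4.13 in IRF8KO GMP against 5.28 and 5.47 in neutrophils. Fcgr2b was at 1.85 and 1.86 against 1.61 and 1.68. Il7r was not well above background in either group on both arrays. The gates chose the cells by these proteins, so their genes are described and not counted as findings. Of the granulocyte markers fixed for the label check, Ltf, Camp, S100a8, S100a9 and Cxcr2 were far brighter in the cells labelled neutrophils. Mpo (9.41 and 9.51 against 3.74 and 3.79) and Elane (8.93 and 8.87 against 2.58 and 2.5) were brighter in IRF8KO GMP. Ly6g, also fixed, had no named probe. The progenitor markers Kit, Cd34, Myb and Flt3 were brighter in the cells labelled GMP.

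The distance between both cell types was wide. Of 12714 genes tested, 11626 (91.4%) were called, 5774 higher in IRF8KO GMP (45.4%) and 5852 higher in neutrophils (46%), by limma with Benjamini-Hochberg adjustment. The median absolute difference was 1.69 on the log2 scale, against 0.0688 between the replicates of IRF8KO GMP and 0.0880 between those of neutrophils. Over the same genes IRF8KO GMP stood 0.180 from WT GMP, 0.702 from common dendritic cell progenitors, 0.736 from pre-cDC and 0.836 from CD8+ cDC, so the neutrophils were the farthest of the 5 groups. These genes were filtered on IRF8KO GMP and neutrophils, which lets in genes bright in neutrophils alone and none bright in another of the groups alone. Over the 8716 genes above background on all 12 arrays the distances were 1.39 to neutrophils, 0.146 to WT GMP and between 0.617 and 0.703 to the other 3 groups. Among them WT GMP alone share a slide with the knockout. WT GMP stood 1.72 from the neutrophils, a distance that shares the neutrophil arrays with that of the knockout. Because nearly all genes passed the test, gene classes are described by members called with at least a 2-fold difference, which held for 4486 genes higher in IRF8KO GMP (35.3%) and 4278 higher in neutrophils (33.6%). At 8-fold or more there were 1901 and 1167 genes, and at 32-fold or more 544 and 398. Levels of the groups overlapped for 452 genes.

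The split of the calls moved with the scaling. IRF8KO GMP was the higher group in 49.7% of the calls, and in 61.4% when arrays were centred on their medians, in 55.6% with the percentile taken over detected probes and in 54.3% after quantile normalization. Without the filter on dim probes it was the higher group in 34.9%. The 3 scalings moved the median difference of all genes from −0.02 to 0.61, 0.32 and 0.24. Differences from neutrophils under about 0.6 on the log2 scale are therefore not read as directions below. The size of the differences moved with the background correction. With another correction (normexp) the median absolute difference was 1.20 instead of 1.69. Genes called at least 2-fold apart were then 7362 instead of 8764.

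**Figure D1:**
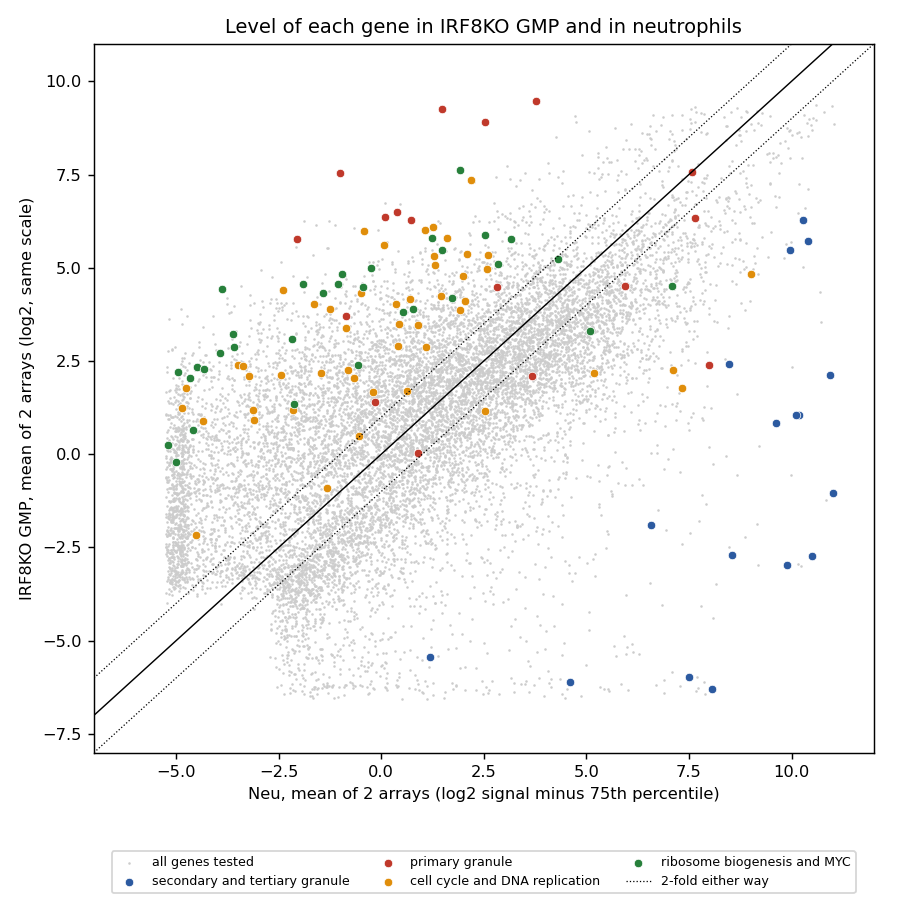
Mean level of each tested gene in neutrophils (x axis) and in IRF8KO GMP (y axis), as log2 signal minus the array's 75th percentile, means of 2 arrays each. The solid line marks equal levels and the dotted lines a 2-fold difference. All 17 secondary and tertiary granule genes lie below the lines, while most cell cycle and ribosome biogenesis genes and 11 of 17 primary granule genes lie above them.

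The 36 gene classes spread from a median difference of −9.06 (secondary and tertiary granules) to 5.52 (nucleotide and one-carbon synthesis), beside −0.02 for all genes. Members that passed the filter only through the group where they are bright had to be higher in that group. The counts and medians of the classes therefore follow in part from the filter. Granule proteins of the late stages, the surface receptors of mature neutrophils and their signalling proteins made up the neutrophil end. The enzymes and factors of growth, the primary granule and the progenitor genes made up the other end. The mitochondrial respiratory chain, the B lymphoid list and the reference genes lay near the middle. Counts at 2-fold below are to be read beside 35.3% of all genes for IRF8KO GMP and 33.6% for neutrophils. A count near those shares does not set a class apart.

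**Figure D2:**
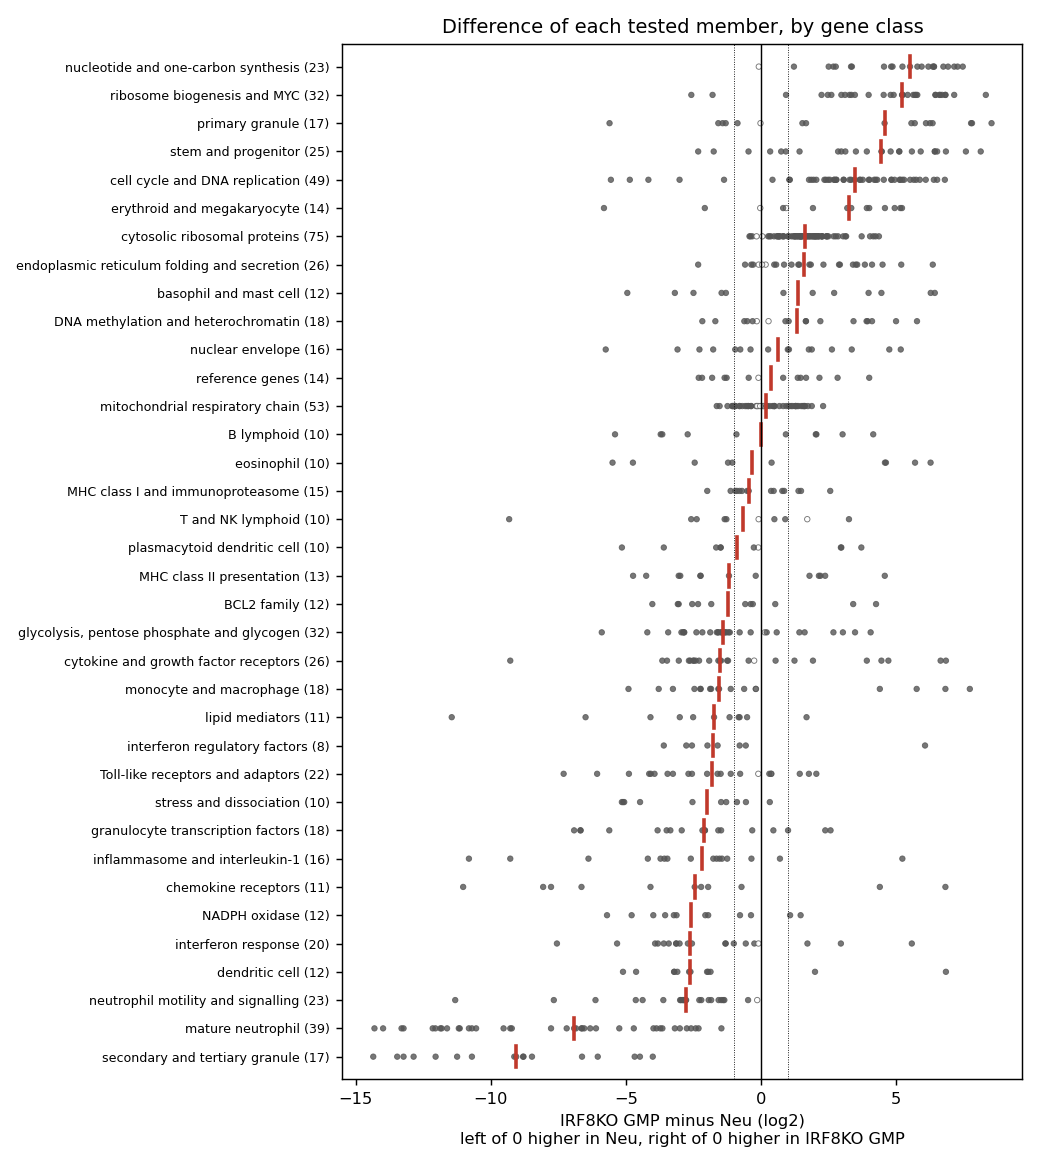
Difference between IRF8KO GMP and neutrophils (log2) for each tested member of 36 gene classes, ordered by the class median (red bar); the number of tested members is in brackets, filled points were called and open points were not. Dotted lines mark a 2-fold difference either way. Medians run from −9.06 to 5.52.

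The primary granule genes were mostly far higher in the knockout progenitor than in neutrophils. All 17 members were well above background on every array of both groups. With at least a 2-fold difference 11 were higher in IRF8KO GMP and 4 in neutrophils, beside 35.3% and 33.6% of all genes, and the median difference was 4.58. Mpo, myeloperoxidase, which makes hypochlorous acid, was at 9.41 and 9.51 in IRF8KO GMP and 3.74 and 3.79 in neutrophils. It stood 51.9-fold higher in the progenitor (log2 difference 5.7, SE 0.083, adjusted p = 2.2e-10). Elane, neutrophil elastase, was at 8.93 and 8.87 against 2.58 and 2.5, 82-fold higher. Prtn3, proteinase 3, had the largest difference in this direction among all genes that were above background on the 4 arrays, with levels of 7.59 and 7.51 against −1.04 and −0.95, 372-fold (log2 8.54, SE 0.087, adjusted p = 7.8e-11). Ctsg, cathepsin G, and Cst7, a cystatin that inhibits cysteine cathepsins, were 220.1-fold and 225-fold higher. For these 5 genes both knockout arrays were high and both neutrophil arrays low. The groups did not overlap, as was so for all but 452 of 12714 genes tested.

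The exceptions within the class were not serine proteases. Lyz2, lysozyme, a protein of primary and later granules, was at 2.45 and 2.31 in IRF8KO GMP and 7.83 and 8.15 in neutrophils, 48.7-fold higher in neutrophils. Hexa, a subunit of lysosomal hexosaminidase, was 2.67-fold higher in neutrophils. Serpinb1a, an inhibitor of elastase, cathepsin G and proteinase 3, was 2.47-fold higher in neutrophils, opposite to the proteases it inhibits. Srgn, serglycin, the proteoglycan that holds granule proteins, was not called, with levels of 7.58 and 7.56 in IRF8KO GMP against 7.57 and 7.6 in neutrophils (adjusted p = 0.825). It was called higher in IRF8KO GMP with normexp, with array medians and with the percentile over detected probes.

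Promoter sequences show what surrounds the start sites of Mpo and of the proteases Elane, Prtn3 and Ctsg, the first 4 genes of the list. The 250 bases before the RefSeq start of each gene (build GRCm38.p6, 5′ to 3′ on the gene's strand) are given with the PU.1-type string GAGGAAG in capitals, which was searched on both strands.
Mpo, chr11:87793534-87793783, plus strand: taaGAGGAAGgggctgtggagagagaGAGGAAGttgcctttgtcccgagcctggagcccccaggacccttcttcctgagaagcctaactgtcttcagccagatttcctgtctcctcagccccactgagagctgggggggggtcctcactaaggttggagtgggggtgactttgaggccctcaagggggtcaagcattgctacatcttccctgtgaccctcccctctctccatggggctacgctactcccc
Elane, chr10:79886062-79886311, plus strand: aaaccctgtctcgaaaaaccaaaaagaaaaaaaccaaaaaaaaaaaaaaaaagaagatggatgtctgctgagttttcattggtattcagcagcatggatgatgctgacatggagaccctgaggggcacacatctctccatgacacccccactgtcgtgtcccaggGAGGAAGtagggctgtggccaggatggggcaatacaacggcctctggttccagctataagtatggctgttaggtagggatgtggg
Prtn3, chr10:79879417-79879666, plus strand: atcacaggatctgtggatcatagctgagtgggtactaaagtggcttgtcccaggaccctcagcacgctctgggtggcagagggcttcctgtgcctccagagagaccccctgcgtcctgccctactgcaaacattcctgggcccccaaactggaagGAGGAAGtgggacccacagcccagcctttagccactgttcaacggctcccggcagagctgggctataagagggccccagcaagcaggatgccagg
Ctsg, chr14:56102575-56102824, minus strand: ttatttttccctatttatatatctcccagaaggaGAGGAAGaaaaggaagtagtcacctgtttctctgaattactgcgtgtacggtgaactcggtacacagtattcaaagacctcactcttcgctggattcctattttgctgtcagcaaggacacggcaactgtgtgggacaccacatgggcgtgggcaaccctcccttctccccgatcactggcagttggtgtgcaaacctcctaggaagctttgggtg
In the windows of 250 bases before the start, GAGGAAG was present for 5 of the 14 primary granule genes with a promoter in the table. The 4 above were among them, and the share over 32851 promoters was 10.6%. The string was also present for 5 of 13 secondary and tertiary granule promoters and 9 of 35 mature neutrophil promoters. It lay in 5 of 26 ribosome biogenesis, 4 of 20 nucleotide synthesis and 2 of 39 cell cycle windows. It therefore did not set the primary granule class apart. PU.1, encoded by Spi1, is a myeloid ETS-family factor. The match is a description of letters and not of binding.

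The secondary and tertiary granule genes were the farthest apart of all classes. All 17 tested members were called and at least 2-fold higher in neutrophils (background 33.6%), with a median difference of −9.06, or −8.84 with unmeasured levels set at their limits. Of 18 on the array, 17 were above background on both neutrophil arrays and 13 on both IRF8KO GMP arrays. Members that passed the filter through neutrophils alone had to be higher there. Ltf, lactoferrin, the iron-binding protein of specific granules, was at −2.77 and −2.71 in IRF8KO GMP and 10.47 and 10.52 in neutrophils, 9625-fold higher in neutrophils (log2 −13.23, SE 0.26, adjusted p = 7.5e-10). Camp, which encodes the cathelicidin antimicrobial peptide, was at −1.11 and −0.95 against 10.95 and 11.08, 4228-fold. Ngp, neutrophilic granule protein, was at −2.92 and −3.03 against 9.8 and 9.97, 7437-fold. All 3 were nonetheless well above background on both knockout arrays, so the difference is one of level and not of detection. Mmp9, gelatinase B of tertiary granules, was not above background in IRF8KO GMP (−5.69 and −6.26) and stood at 7.45 and 7.53 in neutrophils, at least 3382-fold higher. Itgb2l, an integrin beta chain, was at least 4981-fold higher in neutrophils. The smallest difference in the class was for Hp, haptoglobin, at 6.34 and 6.21 against 10.27 and 10.29 (16.1-fold), followed by Anxa1 and Slpi, a secreted inhibitor of leukocyte proteases, at 22.3-fold and 25.5-fold.

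Against WT GMP, on the same slide, most tested members of the class stood higher in the knockout. Of 18 members on the array, 13 were tested between both kinds of GMP, and all 13 were above background on both knockout arrays but only 9 on both WT GMP arrays. The other 4, Ltf, Ngp, Mmp8 and Cd177, passed the filter through the knockout alone and so had to be higher there. Of the 9 above background in both, 6 were higher in IRF8KO GMP and none lower, beside 15.8% and 10.9% of 12156 genes. Camp was at −2.54 and −2.91 in WT GMP, and the knockout stood 1.7 above it (adjusted p = 0.00037). Ltf was at −5.62 and −4.79 in WT GMP, not above background, so the knockout was at least 2.09-fold higher. Mmp8, neutrophil collagenase, was at −5.55 and −2.85 in WT GMP, 0.86 and 0.8 in IRF8KO GMP and 9.62 and 9.62 in neutrophils. The WT GMP arrays were far apart for Mmp8, which was above background on 1 of them, and both lay below the knockout. Cd177, a neutrophil surface glycoprotein, was at −5.76 and −5.66 in WT GMP, not above background, −1.95 and −1.85 in IRF8KO GMP and 6.51 and 6.65 in neutrophils. Lcn2, the iron-chelate binder lipocalin 2, was at 1.16 and 1.19 in WT GMP, 2.15 and 2.1 in IRF8KO GMP and 10.87 and 11 in neutrophils. For Camp and Lcn2, above background in both kinds of GMP, the knockout progenitor lay between WT GMP and neutrophils and closer to WT GMP. For Ltf, Mmp8 and Cd177 the filter fixed the place above WT GMP, so their order adds nothing. The gap to neutrophils was still 443-fold for Mmp8. A small share of more mature cells in the sorted progenitors and a low level in every cell cannot be told apart in bulk samples. The primary granule list had 9 of 17 members higher in IRF8KO GMP than in WT GMP and none lower, with a median difference of 0.30.

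**Figure D3:**
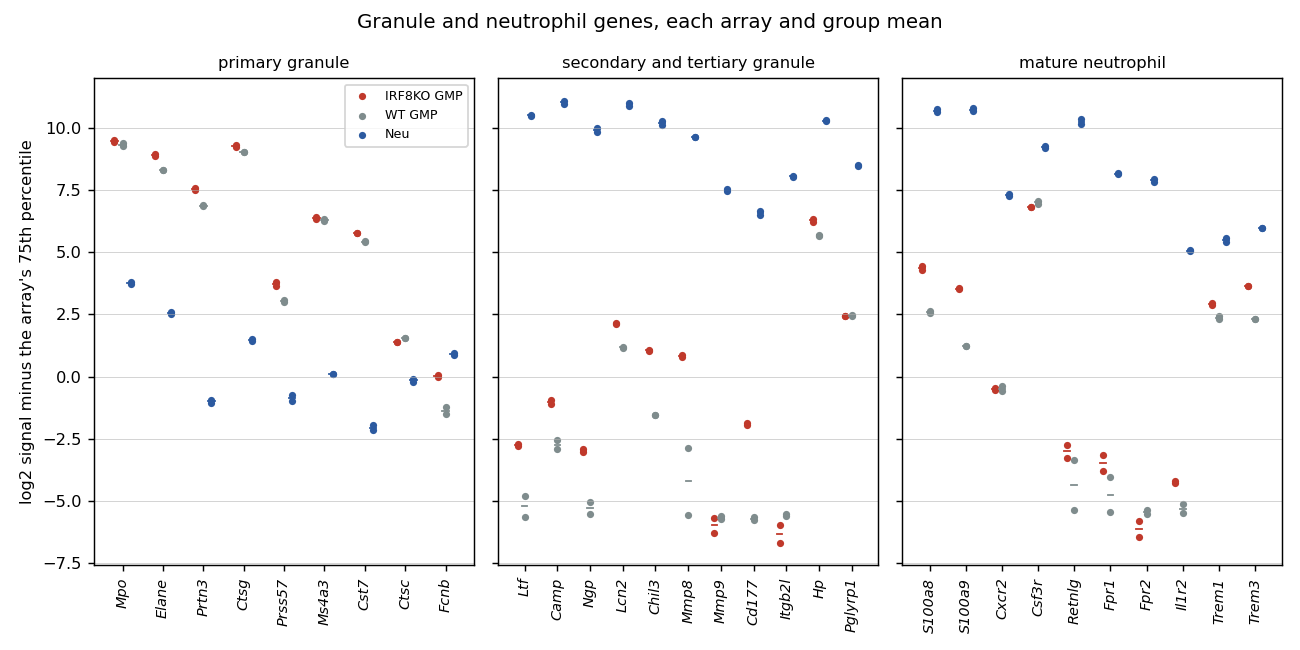
Level of primary granule, secondary and tertiary granule, and mature neutrophil genes on each array (points) with the group mean (bar), in IRF8KO GMP (red), WT GMP (grey) and neutrophils (blue), as log2 signal minus the array's 75th percentile. Genes are the first tested members of each list, and Ltf and Ngp are background readings in WT GMP. The knockout was not called apart from WT GMP for Mpo and Ctsg and was 0.595 higher on the log2 scale for Elane. It stands above WT GMP but far below neutrophils for Camp, Lcn2 and Chil3. The same order for Ltf and Ngp was fixed by the filter.

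The start-site windows of the lactoferrin and neutrophilic granule protein genes show the C/EBP-type string TTNCNNAA, searched on both strands and set in capitals, in the 250 bases before the RefSeq start.
Ltf, chr9:111019042-111019291, plus strand: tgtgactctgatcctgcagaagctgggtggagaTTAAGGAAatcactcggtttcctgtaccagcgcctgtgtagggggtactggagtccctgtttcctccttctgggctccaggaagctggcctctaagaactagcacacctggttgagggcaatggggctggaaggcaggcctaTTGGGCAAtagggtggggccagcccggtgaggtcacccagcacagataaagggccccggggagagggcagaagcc
Ngp, chr9:110419558-110419807, plus strand: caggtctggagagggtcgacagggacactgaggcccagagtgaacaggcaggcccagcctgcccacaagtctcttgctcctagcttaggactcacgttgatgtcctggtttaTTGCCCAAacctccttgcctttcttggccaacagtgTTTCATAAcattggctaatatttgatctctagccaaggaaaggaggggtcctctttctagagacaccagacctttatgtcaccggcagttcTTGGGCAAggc
TTNCNNAA was present for 10 of 13 secondary and tertiary granule promoters in the table, 5 of 14 primary granule promoters and 20 of 35 mature neutrophil promoters, beside 36.8% of all promoters. TTGCNNAA, which is contained in it, was present for 7 of 13, 1 of 14 and 6 of 35, beside 9.56%. In all 7 strings were counted, without a test. GGAAGT of ETS factors, which can overlap GAGGAAG, lay in 10 of 14 primary granule promoters and 6 of 13 secondary and tertiary granule promoters, beside 19.7% of all.

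The tested genes of the mature neutrophil surface and cytosol were all higher in neutrophils. All 39 tested members of the list were called and at least 2-fold higher there (background 33.6%), with a median difference of −6.92. Of 40 on the array, 39 were above background on both neutrophil arrays and 28 on both IRF8KO GMP arrays. Members that passed the filter through neutrophils alone had to be higher there. S100a8 and S100a9 encode the calcium-binding subunits of calprotectin. S100a8 was at 4.43 and 4.3 in IRF8KO GMP and 10.64 and 10.73 in neutrophils, 79.9-fold higher in neutrophils. S100a9 was at 3.56 and 3.51 against 10.66 and 10.79, 146-fold. Both were higher in IRF8KO GMP than in WT GMP, by 1.76 and 2.3 on the log2 scale (adjusted p = 0.00047 and 7.9e-07). Cxcr2, the receptor for the chemokines that release neutrophils from marrow, was at −0.52 and −0.45 against 7.32 and 7.25, 218-fold higher in neutrophils. Retnlg, a resistin-like secreted protein, was at −3.25 and −2.73 against 10.15 and 10.33, 9620.4-fold. The stefin genes Stfa2l1 and Stfa1, which encode cysteine protease inhibitors and are close copies of one another, were at least 4445-fold and 2244-fold higher, and their probes may share transcripts. Fpr2, a receptor for formyl peptides, was at least 4417-fold higher. The smallest difference was for Ifitm2, at 5.49 and 5.38 against 6.87 and 6.92. Between both kinds of GMP members of this list moved both ways, with 10 higher in IRF8KO GMP and 7 higher in WT GMP of 29 tested. Over all genes 15.8% were higher in IRF8KO GMP and 10.9% higher in WT GMP. Of the 29, 26 were above background in both. With array medians the counts of 10 and 7 were 9 and 4, beside 1095 and 560 of 12156 genes.

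The oxidase that produces superoxide, its regulators and the motility apparatus were mostly higher in neutrophils, by less than the granule genes. In the NADPH oxidase list 8 of 12 members were at least 2-fold higher in neutrophils and 2 in IRF8KO GMP, with a median difference of −2.59. Cybb, the catalytic subunit, was at −0.62 and −0.58 in IRF8KO GMP and 5.06 and 5.14 in neutrophils, 51.9-fold higher in neutrophils, and its partner Cyba was 11.7-fold higher. The cytosolic subunits Ncf4 and Ncf1 were 15.8-fold and 8.72-fold higher. Both members higher in the progenitor were superoxide dismutases, which remove superoxide, with Sod1 2.77-fold and Sod2 2.12-fold higher. Of 23 motility and signalling genes, 21 were at least 2-fold higher in neutrophils and none in the progenitor, with a median difference of −2.79. Fgr, a SRC-family kinase, was at −5.96 and −4.75 in IRF8KO GMP, not above background, and at 5.99 and 5.95 in neutrophils, at least 1176-fold higher. Lyn, of the same kinase family, was 20.8-fold higher. Lsp1, an actin-binding protein of leukocytes, was 203-fold higher, and Itgb2, the common beta chain of leukocyte integrins, 69.8-fold. Fermt3, kindlin-3, which activates integrins, was not called (4.19 and 4.15 against 4.25 and 4.37, adjusted p = 0.175). With normexp, quantile normalization, array medians and the authors' table it was called higher in IRF8KO GMP.

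Receptors that sense bacteria, chemokines and cytokines followed the same direction with named exceptions. Among Toll-like receptors and adaptors 14 of 22 tested were at least 2-fold higher in neutrophils and 3 in IRF8KO GMP, with a median of −1.80. Tlr13, which senses bacterial ribosomal RNA, was at −0.43 and −0.38 against 6.88 and 6.92, 158-fold higher in neutrophils. Tlr8 was at least 16.4-fold higher and Tlr2 15.3-fold, while the kinase Irak1 was 3.43-fold higher in IRF8KO GMP. Of 11 chemoattractant receptors tested 8 were at least 2-fold higher in neutrophils, among them C5ar1, the receptor of complement fragment C5a, by at least 419.7-fold, and Cxcr1 by at least 54-fold. Ccr2 and Cx3cr1, the receptors associated with monocytes, were the exceptions. Ccr2 was at 2.85 and 2.75 in IRF8KO GMP and not above background in neutrophils (−3.66 and −4.4), at least 55.5-fold higher in the progenitor. Cxcr4, which retains cells in marrow, was at 2.35 and 2.33 against 4.52 and 4.59, 4.64-fold higher in neutrophils.

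Among cytokine and growth factor receptors 16 of 26 were at least 2-fold higher in neutrophils and 7 in IRF8KO GMP. Csf3r, the receptor of the granulocyte growth factor G-CSF, was at 6.82 and 6.8 in the progenitor and at 9.19 and 9.27 in neutrophils, 5.34-fold higher in neutrophils. The GM-CSF receptor chains Csf2ra and Csf2rb were 12.6-fold and 5.64-fold higher there, and Il17ra 11.1-fold. Il1r2, a decoy receptor that binds interleukin-1 without signalling, was at −4.27 and −4.18 in IRF8KO GMP, above background on 1 of the 2 arrays, and at 5.04 and 5.07 in neutrophils, while Il1r1, the signalling receptor, was at −0.17 and −0.28 against −5.09 and −4.8 and at least 6.82-fold higher in the progenitor. Flt3, the receptor of FLT3 ligand, was at 4.15 and 4.2 in IRF8KO GMP and, above background on 1 of the 2 arrays, at −2.97 and −2.38 in neutrophils, and Il6st, the shared signalling chain of interleukin-6 receptors, was at least 25.2-fold higher in the progenitor.

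Genes of inflammation were mostly higher in neutrophils. In the inflammasome and interleukin-1 list 13 of 16 were at least 2-fold higher there and 1 in IRF8KO GMP. Il1b was at least 1143-fold higher in neutrophils and Il1rn, which encodes the receptor antagonist, at least 43.8-fold. Nlrp3, a cytosolic sensor, was 13.1-fold higher and Casp1 2.89-fold, whereas Nlrc4, another sensor, was at 0.43 and 0.34 in the progenitor and at least 10.4-fold higher there. Of 11 lipid mediator genes 7 were at least 2-fold higher in neutrophils and 1 in the progenitor. Alox5, the lipoxygenase that starts leukotriene synthesis, was at 1.14 and 1.08 against 7.56 and 7.64, 90.1-fold higher in neutrophils, and its activating protein Alox5ap 8.03-fold. Pla2g7, which inactivates platelet-activating factor, was at least 1332-fold higher in neutrophils. Among interferon response genes 14 of 20 were at least 2-fold higher in neutrophils, with Ifit3 by at least 106-fold, Rsad2 by 40.1-fold and Isg15 by 10.65-fold. Gbp3, a guanylate-binding protein, was at 2.32 and 2.22 in IRF8KO GMP and not above background in neutrophils, at least 38.5-fold higher in the progenitor.

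Growth and division genes were mostly higher in the progenitor. Of 49 cell cycle and DNA replication genes 43 were at least 2-fold higher in IRF8KO GMP (background 35.3%) and 5 in neutrophils, with a median difference of 3.47. Of 50 on the array, 49 were above background on both IRF8KO GMP arrays and 40 on both neutrophil arrays. Mcm2, a subunit of the replicative helicase, was at 4.42 and 4.4 in IRF8KO GMP and −2.54 and −2.26 in neutrophils, 112-fold higher in the progenitor (log2 6.81, SE 0.088, adjusted p = 1.5e-10), and Mcm3 was 84.7-fold higher. Cdk6, a G1 kinase of blood progenitors, was at least 27.4-fold higher. The mitotic genes Top2a and Cdk1 were 19-fold and 12.6-fold higher, and Mki67, the Ki-67 antigen, 6.58-fold, at 5.35 and 5.31 against 2.59 and 2.64. No array of the progenitor overlapped a neutrophil array for these genes, as was so for all but 452 of 12714 genes. Mki67 was still well above background in neutrophils.

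The 5 members higher in neutrophils were named regulators of cell cycle entry and exit. E2f2, an E2F factor, was at 1.82 and 1.72 against 7.31 and 7.34, 47-fold higher in neutrophils. Cdkn2d and Cdkn1b, inhibitors of cyclin-dependent kinases (p19 and p27), were 28.9-fold and 8.07-fold higher. Ccnd3, cyclin D3, was at 4.86 and 4.83 against 8.96 and 9.05, 17.9-fold higher, and Rb1, the retinoblastoma protein, 2.58-fold. Cdkn1a, which encodes the inhibitor p21, went the other way, at 1.28 and 1.2 in IRF8KO GMP and −4.96 and −4.77 in neutrophils, where it was a background reading. Against WT GMP, 23 of 49 cell cycle genes were lower in the knockout and 1 higher (background 10.9% and 15.8%), with a median difference of −0.22. That count did not hold under every scaling. With arrays scaled to their medians, 2 of the 49 were lower and 1 higher, with a median of −0.15. That scaling moved the median difference of all genes between knockout and WT GMP from 0.030 to 0.11. The number lower was 24 with normexp, 24 with the percentile over detected probes and 26 after quantile normalization. It was 26 in the authors' table and 19 with the replicate block. The string TTTGAA of mitotic promoters lay in 8 of 39 cell cycle windows (20.5%), beside 15.99% of all. It also lay in 4 of 13 secondary and tertiary granule, 3 of 14 primary granule and 4 of 35 mature neutrophil windows.

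Ribosome biogenesis showed the same direction at a larger size. Of 32 genes 29 were at least 2-fold higher in IRF8KO GMP and 2 in neutrophils, with a median difference of 5.23, or 4.73 with unmeasured levels set at their limits. Of 33 on the array, 32 were above background on both IRF8KO GMP arrays and 20 on both neutrophil arrays. Members that passed the filter through the progenitor alone had to be higher there. With all 4 arrays required above background, 17 were at least 2-fold higher in IRF8KO GMP. Myc, the growth regulator, was at 4.38 and 4.5 in IRF8KO GMP and −3.95 and −3.83 in neutrophils, a background reading, and so at least 173-fold higher in the progenitor. Wdr12 and Rrs1, assembly factors of the large ribosomal subunit, were at least 36.5-fold and 74-fold higher. Npm1, the nucleolar protein nucleophosmin, was 52.1-fold higher at 7.61 and 7.62 against 1.91 and 1.91, and Ncl, nucleolin, 6.1-fold. Max, the partner of MYC and of the MXD proteins, and Polr1a, the large subunit of RNA polymerase I, were higher in neutrophils by 5.96-fold and 3.46-fold. Mxd1, which pairs with MAX in place of MYC, was at 0.93 and 0.92 in IRF8KO GMP and 7.82 and 7.85 in neutrophils, 121-fold higher in neutrophils. The E-box CACGTG lay in 1 of 26 promoter windows of this class, beside 6.02% of all promoters, in a window that reaches only 250 bases. The ETS string CCGGAAG lay in 5 of 26, beside 6.91% of all. It also lay in 7 of 39 cell cycle, 2 of 20 nucleotide synthesis and 1 of 14 primary granule windows.

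Nucleotide and one-carbon synthesis had the largest median, 5.52, with 22 of 23 members at least 2-fold higher in IRF8KO GMP and none in neutrophils. All 23 were above background on both IRF8KO GMP arrays and 13 on both neutrophil arrays, so the filter fixed part of this count. With all 4 arrays required above background, 12 were at least 2-fold higher in IRF8KO GMP. Phgdh, the first enzyme of serine synthesis, was at 6.18 and 6.14 against −1.09 and −1.15, 156-fold higher (log2 7.28, SE 0.059, adjusted p = 4.7e-11). Psat1 and Psph, which complete the pathway, were 73.6-fold and 6.42-fold higher. Dut, which removes dUTP, and the folate enzyme Mthfd1 were at least 112-fold and 123-fold higher, and Paics, an enzyme of purine synthesis, 122-fold. The member not called was Mthfd2, a mitochondrial folate enzyme, at −0.1 and −0.081 against 0.11 and −0.13 (adjusted p = 0.562), which was called higher in IRF8KO GMP with array medians. Cytosolic ribosomal proteins had a smaller median than the factors that assemble ribosomes. Of 75 genes 57 were at least 2-fold higher in IRF8KO GMP and none in neutrophils, with a median of 1.63. Rpl10a, Rpl3 and Rpl12 had the largest, 20.7-fold, 19-fold and 17.9-fold, and Rpl3 was at 8.51 and 8.51 against 4.24 and 4.3. Probes of ribosomal protein genes can also read their many processed pseudogenes, so single values in this class are uncertain.

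Members of the energy metabolism lists went in both directions. The mitochondrial respiratory chain had a median of 0.19 over 53 genes, with 17 at least 2-fold higher in IRF8KO GMP and 7 in neutrophils. Over all genes 35.3% and 33.6% were so. Ndufa10 and Ndufa1, both subunits of complex I, went opposite ways, 4.93-fold higher in IRF8KO GMP and 3.11-fold higher in neutrophils. Glycolysis, pentose phosphate and glycogen genes had a median of −1.39 over 32 genes, with 21 at least 2-fold higher in neutrophils and 6 in IRF8KO GMP. With array medians 11 were at least 2-fold higher in neutrophils. Pygl, glycogen phosphorylase, was at 5.66 and 5.63 against 9.84 and 9.87, 18.5-fold higher in neutrophils, while its isoform Pygb was at 1.51 and 1.52 against −2.43 and −2.67, above background on 1 of the 2 neutrophil arrays. Pfkfb4, which sets the level of the activator of phosphofructokinase, was 59.4-fold higher in neutrophils, and G6pdx, the entry enzyme of the pentose phosphate pathway that supplies NADPH, 10.8-fold. Hexokinases Hk1 and Hk2 were 2.51-fold and 3.1-fold higher in neutrophils, whereas Pfkm and Ldhb were 11.2-fold and 8.2-fold higher in IRF8KO GMP.

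Protein folding and secretion genes of the endoplasmic reticulum were higher in the progenitor, 16 of 26 by at least 2-fold against 1 in neutrophils, with a median of 1.61. Sdf2l1, a co-chaperone partner, was at 3.83 and 3.86 against −2.58 and −2.45, 82.3-fold higher, and the disulphide isomerase Pdia4, above background on 1 of the 2 neutrophil arrays, was at 2.37 and 2.51 against −3.04 and −2.48. The chaperones Calr, Hsp90b1 and Hspa5 were 17.3-fold, 7.43-fold and 3.48-fold higher. The member higher in neutrophils was Ddit3 (CHOP), a stress-response factor, at −0.063 and −0.1 against 2.18 and 2.3, 5-fold.

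In the nuclear envelope list 7 of 16 were at least 2-fold higher in IRF8KO GMP and 4 in neutrophils, beside 35.3% and 33.6% of all genes. Lbr, the lamin B receptor, which is needed for the lobed nucleus of granulocytes, was at 4.4 and 4.28 against 6.04 and 6.18, 3.4-fold higher in neutrophils. Syne1 and Syne2, nesprins that link the nucleus to the cytoskeleton, were 53.7-fold and 8.5-fold higher in neutrophils, and Sun2, their partner in the envelope, 4.84-fold. The nuclear pore genes Nup93 and Nup210 were 36.2-fold and 10.3-fold higher in the progenitor. In the DNA methylation and heterochromatin list 10 of 18 were at least 2-fold higher in IRF8KO GMP and 2 in neutrophils. The methyltransferase genes Dnmt3b and Dnmt1 were 54.9-fold and 10.8-fold higher in IRF8KO GMP, and Uhrf1, which brings DNMT1 to newly copied DNA, 32.1-fold. Ezh2 and Ezh1, alternative catalytic subunits of the Polycomb complex that methylates histone H3, went opposite ways. Ezh2 was at 2.64 and 2.62 against −1.38 and −1.59, 17.3-fold higher in the progenitor, and Ezh1 at 3.54 and 3.43 against 5.56 and 5.74, 4.5-fold higher in neutrophils.

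Transcription factors of the granulocyte lineage were divided between both cell types. Of 18 tested 13 were at least 2-fold higher in neutrophils and 3 in IRF8KO GMP, with a median of −2.12. Cebpa was at 4.19 and 4.23 in IRF8KO GMP and 1.83 and 1.82 in neutrophils, 5.22-fold higher in the progenitor (SE 0.072 on the log2 scale, adjusted p = 8.1e-09). Gfi1, a repressor that favours granulocytes over monocytes, was at 5.36 and 5.25 against 2.72 and 2.74, 5.97-fold higher in the progenitor. Cebpe was at 5.26 and 5.27 against 8.6 and 8.64, 10.2-fold higher in neutrophils, and Cebpb 2.98-fold. Klf5 and Rara, the retinoic acid receptor alpha, were 103-fold and 102-fold higher in neutrophils, and Rara was at −0.022 and 0.096 against 6.69 and 6.74. The groups did not overlap for any of these 6 genes, as was so for all but 452 of 12714 genes. Against WT GMP, 12 of 17 members were higher in the knockout and 1 lower (background 15.8% and 10.9%), with a median of 0.44. The 12 were 8 with array medians, 9 with the percentile over detected probes and 9 with the replicate block. They were 10 after quantile normalization and 12 with normexp and in the authors' table. Gfi1 and Cebpb stood 1.02 and 0.9 above WT GMP (adjusted p = 0.00612 and 0.00105), while Cebpe was at 5.29 and 5.28 in WT GMP (difference −0.021, adjusted p = 0.938).

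Most other interferon regulatory factor genes were higher in neutrophils. Of 8 tested 5 were at least 2-fold higher there and Irf8 alone was at least 2-fold higher in IRF8KO GMP. Irf7, which drives type I interferon genes, was at −1.59 and −1.51 against 2.0 and 2.09, 12.1-fold higher in neutrophils. Irf2 and Irf9 were 6.79-fold and 5.87-fold higher there and Irf1 3.94-fold. The level of Irf8 in neutrophils (−0.095 and −0.044) was 67.5-fold below that of the arrays labelled IRF8KO GMP.

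**Figure D4:**
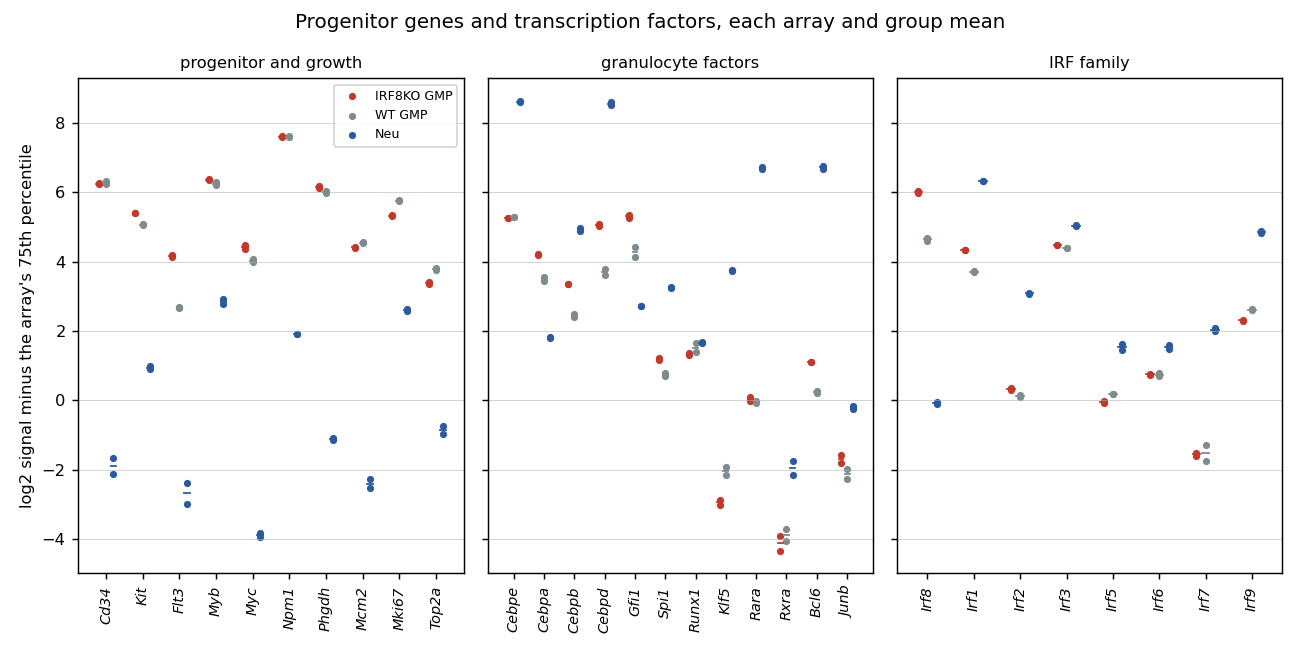
Level of progenitor and growth genes, granulocyte transcription factors and interferon regulatory factors on each array (points) with the group mean (bar), in IRF8KO GMP (red), WT GMP (grey) and neutrophils (blue), as log2 signal minus the array's 75th percentile. The progenitor and growth genes were chosen from the lists for display. Irf8 is highest on the arrays labelled IRF8KO GMP (6.03 and 5.98), Cebpa and Gfi1 are higher in both kinds of GMP than in neutrophils, and Cebpe, Rara and Bcl6 are highest in neutrophils.

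Stem and progenitor genes were mostly higher in IRF8KO GMP. Of 25 tested 19 were at least 2-fold higher in IRF8KO GMP and 2 in neutrophils, with a median of 4.46, or 3.52 with unmeasured levels at their limits. Of 28 on the array, 25 were above background on both IRF8KO GMP arrays and 16 on both neutrophil arrays. With all 4 arrays required above background, 10 were at least 2-fold higher in IRF8KO GMP. Cd34, the sialomucin of early progenitors, was at 6.26 and 6.23 against −1.66 and −2.12, 282-fold higher. Adgrg1, an adhesion receptor of stem cells also called GPR56, was 193-fold higher. Erg, an ETS factor of stem cells, was 3.36-fold higher in neutrophils. Between both kinds of GMP, Flt3 was higher in the knockout by 1.5 on the log2 scale (adjusted p = 0.00043) and Adgrg1 lower (−0.48, adjusted p = 0.0151). In the BCL2 family Bcl2 itself was at 1.77 and 1.99 in IRF8KO GMP and, above background on 1 of the 2 arrays, at −2.19 and −2.58 in neutrophils. Bcl2l2 was 10.69-fold higher in IRF8KO GMP, while Mcl1, on which neutrophil survival depends, was at 4.64 and 4.65 against 7.22 and 7.16, 5.83-fold higher in neutrophils. Bcl2a1d and the death-promoting genes Pmaip1 (NOXA) and Bmf were 8.25-fold, 16.2-fold and 8.44-fold higher in neutrophils.

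Monocyte and dendritic cell genes were not a single block. Of 18 monocyte and macrophage genes tested 11 were at least 2-fold higher in neutrophils and 4 in IRF8KO GMP. The 4 were Ccr2, Cx3cr1, F13a1 and Ms4a6c. F13a1, coagulation factor XIII chain A, which monocytes make, was at 6.07 and 6.22 against −1.87 and −1.32, 213-fold higher in the progenitor, and it stood 1.89 above WT GMP (adjusted p = 0.00117). Ly86, which encodes the TLR-associated protein MD-1, was at −4.19 and −4.87 in IRF8KO GMP, not above background, 3.15 and 3.2 in WT GMP and −1.32 and −1.22 in neutrophils. WT GMP was thus at least 169.9-fold above the knockout for Ly86 (adjusted p = 2.7e-07). Of 12 dendritic cell genes 10 were at least 2-fold higher in neutrophils, although 10 of the 18 on the array were not above background on both IRF8KO GMP arrays and several neutrophil levels lay near the limit. Id2, a helix-loop-helix inhibitor, was at −1.25 and −1.14 against 3.87 and 3.96, 34.5-fold higher in neutrophils, while Clec9a, at −1.61 and −1.88 in neutrophils, gave a bound of 5.62-fold.

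The antigen presentation classes differed between their members. In MHC class II presentation 7 of 13 were at least 2-fold higher in neutrophils and 5 in IRF8KO GMP, beside 33.6% and 35.3% of all genes. Cd74, the invariant chain, was at −3.54 and −3.92 in IRF8KO GMP, −0.9 and −0.93 in WT GMP and 0.99 and 1.01 in neutrophils, and H2-Eb1, a class II beta chain, was at −3.13 and −2.9 in IRF8KO GMP, −0.7 and −0.48 in WT GMP and 1.22 and 1.25 in neutrophils. For both genes the knockout was the lowest group, WT GMP lay between, and neutrophils were 26.6-fold and 19-fold above the knockout. The peptide-loading gene H2-DMa and the class II chain H2-Ab1 went the other way, 24-fold and 5.2-fold higher in IRF8KO GMP. MHC class I and immunoproteasome genes had a median of −0.45, which turned to 0.0762 after quantile normalization and to 0.175 with array medians, so no direction is given for the class. H2-Q4 was 3.96-fold higher in neutrophils and Psmb10, an immunoproteasome subunit, 2.62-fold higher in IRF8KO GMP, with related class I genes hard to tell apart by a probe.

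Markers of other lineages were measured because a sorted progenitor population can hold early cells of several fates. Of 14 basophil and mast cell genes on the array, 11 were above background on both IRF8KO GMP arrays, 12 on both WT GMP arrays and 8 on both neutrophil arrays. The mean level of that list, background readings included, lay between 0.03 and 0.08 in IRF8KO GMP, between 1.63 and 1.64 in WT GMP and between −0.86 and −0.74 in neutrophils. Cpa3, mast cell carboxypeptidase, was at 3.94 and 3.8 in IRF8KO GMP, 5.38 and 5.37 in WT GMP and −2.24 and −2.6 in neutrophils, where 1 of the 2 arrays was above background. For eosinophil genes the mean level lay between 0.27 and 0.30 in IRF8KO GMP, between 1.70 and 1.81 in WT GMP and between −0.43 and −0.34 in neutrophils. Prg2 and Epx, the eosinophil granule genes, were 52.3-fold and at least 19.9-fold higher in IRF8KO GMP than in neutrophils, whereas the ribonuclease genes Ear1 and Ear2, close copies, were 26.7-fold and 45.1-fold higher in neutrophils. For erythroid and megakaryocyte genes the mean level lay between −0.56 and −0.46 in IRF8KO GMP, between 1.74 and 1.81 in WT GMP and between −2.19 and −2.04 in neutrophils. Car2, carbonic anhydrase 2 of red cell precursors, was at 2.2 and 2.26 in IRF8KO GMP, 4.47 and 4.53 in WT GMP and −2.6 and −3.39 in neutrophils, where 1 of the 2 arrays was above background. Between both kinds of GMP, 9 of 11 basophil and mast cell genes, 8 of 9 eosinophil genes and 13 of 14 erythroid and megakaryocyte genes tested were lower in the knockout (background 10.9%), and 2 basophil and mast cell genes were higher. Against neutrophils each list had members on both sides. Over all genes 35.3% were at least 2-fold higher in IRF8KO GMP and 33.6% in neutrophils. At least 2-fold higher in IRF8KO GMP and in neutrophils were 6 and 5 of 12 basophil and mast cell genes, 4 and 5 of 10 eosinophil genes (the 5 were 3 with array medians), and 9 and 2 of 14 erythroid and megakaryocyte genes.

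Against neutrophils haemoglobin went opposite to most of the erythroid list, as did Slc4a1. Between both kinds of GMP Hba-a1 was lower in the knockout, like most of that list. Hba-a1 was at −3.29 and −3.18 in IRF8KO GMP, 1.55 and 1.56 in WT GMP and 2.54 and 2.61 in neutrophils, 56.1-fold higher in neutrophils than in the knockout. Of 14 B lymphoid genes 7 were above background on both IRF8KO GMP arrays and 8 on both neutrophil arrays. Dntt, the terminal transferase of early lymphoid cells, was at 3.11 and 3.01 in IRF8KO GMP, −0.043 and −0.076 in WT GMP and 0.019 and 0.054 in neutrophils, 3.12 above WT GMP (adjusted p = 2.7e-07). Ms4a1 (CD20), which marks B cells, was not above background in IRF8KO GMP and was at −0.64 and −0.8 in neutrophils. Of 15 T and NK lymphoid genes 7 and 9 were above background, with Cd3d not above background in IRF8KO GMP and at 3.61 and 3.65 in neutrophils, at least 233-fold higher. The part of other cell types in the results above was not tested.

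Genes known to be induced by stress and by handling of cells were mostly higher in neutrophils. Of 10 tested 7 were at least 2-fold higher in neutrophils and none in IRF8KO GMP. Dusp1, a phosphatase induced by stress, was at −1.62 and −1.57 against 3.56 and 3.54, 35.5-fold, Zfp36, which promotes decay of inflammatory mRNAs, 34.4-fold, and Atf3 at least 13.5-fold. Fos was at −0.11 and −0.16 in IRF8KO GMP, −2.57 and −2.6 in WT GMP and −0.48 and −0.44 in neutrophils. The sorting methods differ between IRF8KO GMP and neutrophils, and their part in this list was not tested. Of 14 reference genes 6 were at least 2-fold higher in IRF8KO GMP and 5 in neutrophils, beside 35.3% and 33.6% of all genes. Actb was at 8.86 and 8.87 against 10.99 and 11.1, 4.53-fold higher in neutrophils, and Gapdh 2.41-fold, while Hprt was 4.49-fold higher in IRF8KO GMP.

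Over all genes above background on the 4 arrays, those with the largest differences in the progenitor's favour came from the classes above and beyond them. After Prtn3, Cd34, Cst7, Ctsg and F13a1 came Srm, spermidine synthase, at 5.58 and 5.53 against −2.15 and −1.98 (197-fold), and Plppr3, Muc13, a membrane mucin, and Tmem176b at 185-fold, 129-fold and 115-fold. Among genes unmeasured in neutrophils the largest bounds were for Dmkn, Myc, Smyd2, Nme4, Serpinf1 and Fam136a, from 182-fold down to 128-fold. Dmkn, dermokine, was higher in the knockout than in WT GMP (4.57 and 4.45 against 2.53 and 2.53), while Nme4, a mitochondrial nucleoside diphosphate kinase, was at 4.21 and 4.19 in IRF8KO GMP and 4.08 and 4.04 in WT GMP. In the neutrophils' favour the granule genes Ltf, Ngp and Camp were joined by Plbd1, a phospholipase B-like granule protein, at −2.89 and −3.01 against 10.1 and 10.23 (8875-fold). The paired immunoglobulin-like receptors Pirb and Lilra6 and the related Lilrb4a were 4556-fold, 1975-fold and 2178-fold higher, S100a6 4245-fold, Fpr1 3151-fold, the sheddase Adam8 2432-fold and Lgals3, galectin 3, 2114-fold. For Plbd1, Pirb, Lilrb4a and Lgals3 the knockout was below WT GMP as well, by −2.13, −1.4, −1.28 and −1.33 on the log2 scale, whereas Camp was above WT GMP. The largest bounds were for Itgb2l, Stfa2l1, Fpr2, Cstdc4, Chil1 and Cstdc5, from 4981-fold down to 3815-fold, of which Cstdc4 and Cstdc5 belong to the same family of close copies as the stefins.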

How the data were processed

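The scanner files hold spot intensities deposited by the authors, made with Agilent Feature Extraction 10.7.3.1 per the file headers; their processed signal (an intensity, per the file headers) is background-subtracted and not normalized between arrays. Labelling used a low-input amplification kit, per the labels' protocols. The intensities of the same arrays in a table deposited by the authors, whose making no source used here describes, served as an alternative. Control and outlier spots were left out, spots of 1 probe were averaged on the log2 scale, and the 75th percentile of the array was taken off. Well above background means that the scanner software so marked a share of at least 0.5 of a probe's spots. Probes were named through RefSeq accessions (assembly GRCm38.p6, names and promoters alone); 26762 of 55681 probes had 1 symbol. Probes of a gene can disagree: 83 of 4130 tested genes with several probes had a probe at least 2-fold the other way. For 10 genes an array's value was left out. Limma 3.58.1 (lmFit, contrasts, eBayes, two-sided; R 4.3.3, data.table in version 1.17.8) fitted the 12 arrays of the larger design together (total degrees of freedom 7.63), with Benjamini-Hochberg adjustment over the genes tested. SE comes from this fit. At-least folds set the brighter group's mean against, per array of the dimmer group, the higher of the lowest signal well above background and the gene's own. The script was tested on simulated data. Figures used Python 3.11.15, pandas 2.3.3 and matplotlib 3.10.9. No column of values was left unmapped.

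The comparison, the lists of genes and the naming rule were chosen with earlier results of these data known. Named are the 12 largest differences and the 6 largest at-least folds each way, in each list the first 3 members and the 3 largest called each way, the gate genes, and for some lists the smallest and an uncalled member. Anxa1, Bcl6, Cd177, Cdkn1a, Cdkn1b, Chil3, Fermt3, Hp, Ifitm2, Lcn2, Mmp8, Mthfd2, Myb, Npm1, Rb1, Serpinb1a, Slpi, Spi1 and Srgn were chosen after their values were seen. Replicate numbers did not pair the arrays. The planned normexp correction on mean signals used median signals, since the files analysed hold those. The values of some list members are not reported here.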

Additional observations from a re-analysis of the deposited data

How the results depend on the processing

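Called genes numbered 11571 with the replicate block, 11587 with normexp, 11502 after quantile normalization, 10987 with array medians, 11563 in the authors' table and 11646 with only the 4 arrays, beside 11626. Leaving out an array gave 11351 to 11690 called genes (5643 to 5774 higher in IRF8KO GMP, 5664 to 6016 in neutrophils, 8790 to 9063 at least 2-fold); the lone array is then assumed to vary like the other groups. Replicate numbers were shared by label alone: same-numbered arrays deviated with correlations of −0.0632 to 0.0442, and the block left 5743 and 5828 calls. Normexp on median signals was chosen after seeing the data.

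Without the filter on dim probes 10863 genes were higher in neutrophils and 13577 were at least 2-fold apart, of 20284 tested, and IRF8KO GMP was higher in 34.9% of calls. With genes above background on all 4 arrays 3841 were higher in IRF8KO GMP, and fewer members could be tested: at least 2-fold were then 17 of ribosome biogenesis, 12 of nucleotide synthesis, 10 stem, 3 basophil, 3 erythroid and 2 B lymphoid genes (higher in IRF8KO GMP), and 6 dendritic, 2 T and NK, 3 chemokine receptor and 8 inflammasome genes (higher in neutrophils). Array medians left 11 glycolysis, 3 plasmacytoid, 3 eosinophil and 3 T and NK genes higher in neutrophils and 7 MHC class I genes higher in IRF8KO GMP; the percentile over detected probes left 3 eosinophil and 5 MHC class I genes, and normexp 3 T and NK and 5 MHC class I genes. The other 485 class counts stayed within 1.5 times. Class medians were less stable: 254 moved by more than the spread between replicate arrays (1 SD), 239 by less and 11 turned sign.

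These medians turned sign. MHC class I went to 0.01105 (normexp), 0.0762 (quantile), 0.175 (array medians) and 0.0541 (the authors' table), eosinophil to 0.296 (array medians), 0.00835 (detected probes) and 0.0803 (mean of probes), basophil to −0.487 (normexp) and −1.30 (all 4 arrays), T and NK to 0.208 and reference genes to −0.0903 (all 4 arrays). Of genes not called, 3 became calls higher in IRF8KO GMP by limma: Srgn at 0.424 (normexp), 0.613 (array medians) and 0.325 (detected probes), with adjusted p from 0.00012 to 0.0018, Fermt3 at 0.305 (normexp), 0.385 (quantile), 0.491 (array medians) and 0.360 (the authors' table), from 0.0032 to 0.0092, and Mthfd2 at 0.550 (array medians, 0.011). Apart from the smaller number of genes tested under the stricter filter, the cause was not tested. Levels near an array's lowest well-above-background signal are limited by that signal.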

Other observations

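Of 10 tested genes known from plasmacytoid dendritic cells, 5 were at least 2-fold higher in neutrophils (3 with array medians) and 3 in IRF8KO GMP. Over all genes 33.6% and 35.3% were so. Siglech, a surface lectin of those cells, was at 6.78 and 6.81 in IRF8KO GMP, 6.55 and 6.8 in WT GMP and 8.44 and 8.46 in neutrophils, 3.15-fold higher in neutrophils. Spib, an ETS-family factor, was not above background in IRF8KO GMP and at least 22.4-fold higher in neutrophils. Tcf4, the factor that specifies plasmacytoid dendritic cells, was 7.88-fold higher in IRF8KO GMP and Bst2 7.79-fold. Cox6a2, a muscle-type subunit of cytochrome oxidase, was at 2.31 and 2.32 in IRF8KO GMP, −0.85 and −0.82 in WT GMP and −1.37 and −1.44 in neutrophils. The knockout was above both other groups for Cox6a2, by 3.16 on the log2 scale over WT GMP (adjusted p = 2.5e-08 by limma).

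Among T and NK cell genes Nkg7, a protein of cytotoxic granules, was at 6.69 and 6.53 in IRF8KO GMP, 6.52 and 6.39 in WT GMP and 3.31 and 3.38 in neutrophils, 9.58-fold higher in the progenitor. Gzma, a granzyme, was at −4.16 and −3.69 in IRF8KO GMP and −1.31 and −1.38 in neutrophils, and Cd7 at −3.44 and −3.36 and −1.03 and −1.02. Both were above background on 1 of the 2 IRF8KO GMP arrays.

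Probes without a gene symbol were outside the tests above. Of 5441 probes named by a genomic interval that passed the filter, 3013 (55.4%) were called and at least 2-fold higher in neutrophils and 884 (16.2%) in IRF8KO GMP, with a median difference of −1.24. Of 16651 probes with 1 symbol the same held for 5486 (32.9%) and 5946 (35.7%), with a median of 0.02. The files do not pair those intervals with transcripts, and the difference between both kinds of probe was not tested.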
